A study of Rattus norvegicus with 6 samples.

Results

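Collagens, laminins and integrins form the matrix around a gland and the receptors by which cells hold on to it. All genes named as a collagen chain, a laminin chain or an integrin chain were taken from the deposited tables by their symbols, which gave 53 of 15679 rows: 25 collagens, 7 laminins and 21 integrin names. The match of symbols used no values, but the members were chosen with earlier results of these data known. The integrin names include Itgbl1, which encodes a related secreted protein and no receptor chain, while 3 names of integrin-binding proteins (Itgb1bp1, Itgb1bp2 and Itgb3bp) were left out. Chains without a row, among them Col4a2, Col6a1, Lama3, Lamb1, Itga3 and Itgav, were not analysed here.

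The glands studied are pancreatic duct glands, pouches of mucin-producing epithelium in the wall of large pancreatic ducts, which were cut from rat tissue by laser capture and recognised by morphology. One group was wild-type Sprague-Dawley rats (libraries WT26, WT1 and WT4), and the other was pre-diabetic Sprague-Dawley rats with the HIAPP transgene, called HIP (libraries HIP30, HIP2 and HIP3). The transgene makes human islet amyloid polypeptide and in this strain is known to be driven by an insulin promoter, so that the protein is made in beta cells and not in the gland itself. Age, sex and the number of animals behind each library are not stated in the sources used here, and the p-values below therefore rest on differences among 3 and 3 libraries that may be technical.

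Collagen chains wind in threes into a triple helix. Fibrillar collagens (types I, III, V, XI and their relatives) are made mainly by fibroblasts and stellate cells and give the stroma its tensile strength, while type IV collagen and the three-chained laminins build the basement membrane, a thin sheet under every epithelium and around vessels. Integrins are receptors of an alpha and a beta chain. The pair of Itga6 and Itgb4 anchors epithelium to laminin in hemidesmosomes, chains that pair with Itgb1 bind collagen, laminin or fibronectin in many cell types, and chains that pair with Itgb2 or Itgb7 belong to leukocytes.

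The 6 libraries held 15141136 to 17574682 reads on the listed genes. Of the 15679 rows 672 had no read in WT4, against 1837 (HIP3) to 2822 (WT26) in the others, which bears on low genes and on single zeros. The unit of level is CPM, read numbers put on one library size and corrected by TMM, which sets the bulk of genes level between libraries; before that scaling a read was worth 0.0569 to 0.0660 CPM. Values of a gene are listed in the order WT26, WT1, WT4 for wild type and HIP30, HIP2, HIP3 for HIP. The 53 genes took 0.599% to 0.638% of reads in the wild-type libraries and 0.478% to 0.61% in the HIP libraries. Duct markers were high throughout, with 9 of 9 present in each library and summed levels of 9997 to 27023 CPM in wild type and 9299 to 12779 CPM in HIP. Captured tissue also carried transcripts of stroma, vessels, leukocytes and, except in WT26, islets. The summed level of 8 islet genes reached 11362 CPM (WT4) and 5057 CPM (HIP3), with at most 359 CPM in the other 4 libraries. Ins1 alone made up 7761 CPM (WT4) and 3717 CPM (HIP3) of it. Sst ran otherwise, at 246 CPM (HIP30) and 172 CPM (HIP2) against 35.0 CPM (WT4) and 10.2 CPM (HIP3). In bulk RNA of this kind, fewer cells of a type and less RNA per cell cannot be told apart.

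HIP was compared with wild type to see how gland transcripts differ in the pre-diabetic animals. Of the 53 genes, 47 had enough reads to be tested (20 collagens, 7 laminins and 20 integrins), and 0 of 47 passed limma's test at a Benjamini-Hochberg adjusted p of 0.05, where 0% of all 12102 genes tested passed. The count by limma-voom was 0 too. At an unadjusted p under 0.05 stood 5 of the 47, against 6.54% of all genes: Col3a1 and Col5a2 on the lower side, where the background was 3.26%, and Lama5, Itgb8 and Itgam on the higher side, where it was 3.29%. Groups did not overlap for 3 of the 47, against 9.54% of all genes: Col5a2 lay below wild type (background 4.27%), and Itgam and Lama1 lay above it (background 5.27%). Of the 47 differences 27 were negative (48.9% of all genes) and 20 positive (51.1%), with a median of -0.14 in log2 units, beside 0.01 over all genes. By class, the median was -1.15 for 8 fibrillar collagens, 0.11 for 6 basement membrane collagens, 0.30 for 5 laminin chains other than laminin-332, -0.14 for 3 epithelial integrins and 0.38 for 8 leukocyte and platelet integrins. Single libraries moved these medians. The fibrillar median was -0.59 without HIP30 and -1.77 without HIP3, the leukocyte median 1.01 without WT4 and 0.21 without WT1, and the basement membrane median -0.07 without HIP30 and 0.33 without WT4.

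**Figure D1:**
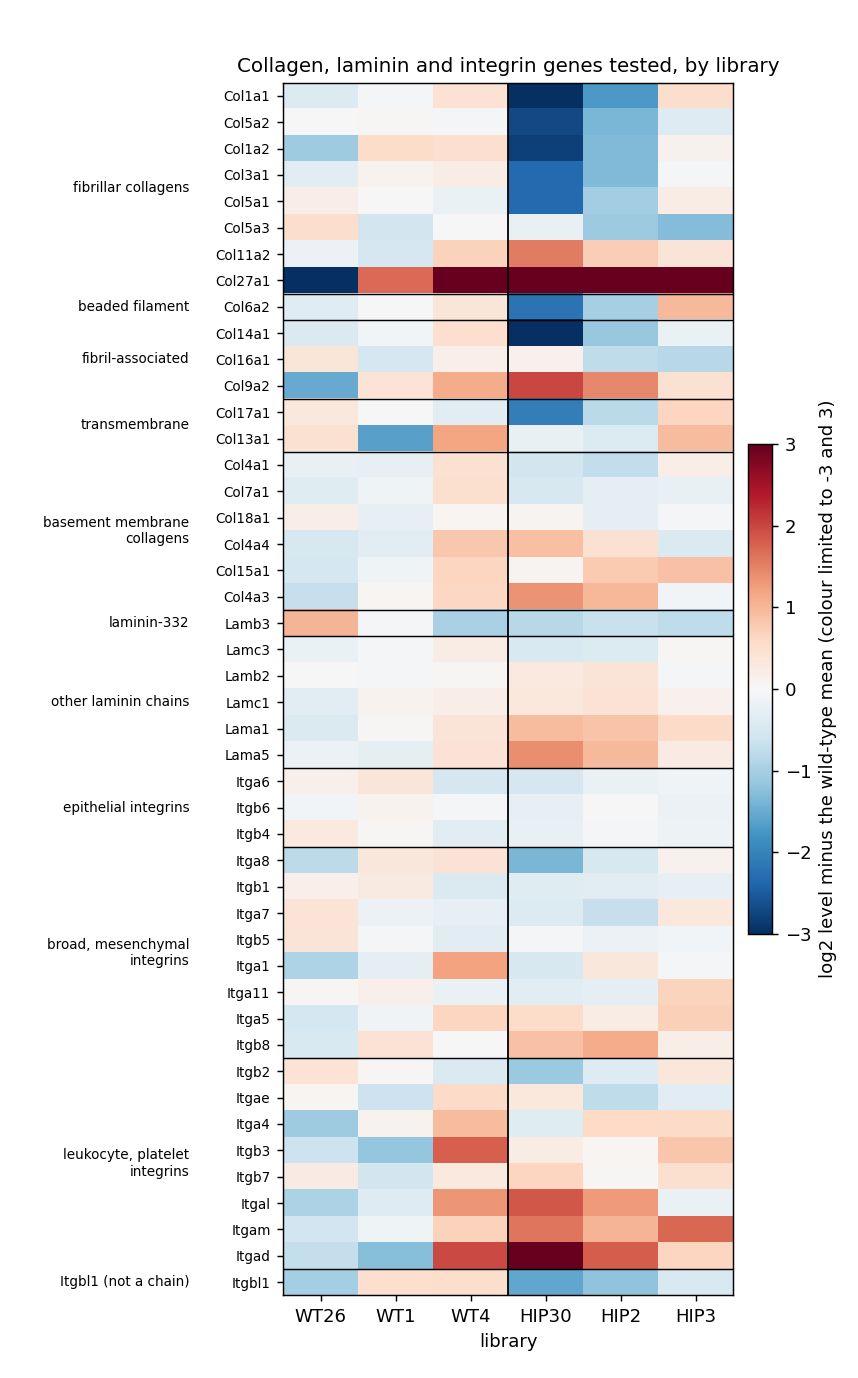
Each row is one of 46 tested genes, each column a library, and the colour gives the log2 level in that library minus the mean of the 3 wild-type libraries, limited to -3 and 3. Col1a1, Col5a2, Col1a2, Col3a1 and Col5a1 are darkest blue in HIP30, paler in HIP2 and near the wild-type level in HIP3, while Lama5 and Itgad run the other way.

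The fibrillar chains Col1a1, Col1a2, Col3a1, Col5a1 and Col5a2 were lower in HIP30 and HIP2 than in every wild-type library and closer to wild type in HIP3. Col5a2, a chain of type V collagen, which nucleates fibrils, stood at 68.6, 69.8 and 65.8 CPM in wild type and at 10.3, 26.1 and 51.6 CPM in HIP. The wild-type libraries lay within a few CPM of each other and each HIP library lay below them, over a wide span. The means were 68.0 ± 2.05 and 29.3 ± 20.8 CPM (SD, n = 3 each). The log2 difference was -1.50 with a standard error of 0.51 and a 95% interval of -2.67 to -0.32 (limma, adjusted p = 0.691). Its unadjusted p was under 0.05 in 13 of 14 alternative settings, the exception being the fit without WT1. The difference was -0.88 without HIP30 and -2.05 without HIP3. Its partner chain Col5a1 stood at 58.4, 51.2 and 44.7 CPM in wild type and at 10.1, 24.7 and 59.5 CPM in HIP, so that HIP3 lay above every wild-type library. That gave a difference of -1.05 (standard error 0.56; adjusted p = 0.691), which was -0.41 without HIP30 and -1.70 without HIP3. The reads on Col5a1 per read on Col5a2 were 0.68 to 0.851 in wild type and 0.944 to 1.15 in HIP, without overlap; no test was made of this ratio.

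Col3a1, the homotrimeric collagen of soft and vascular tissue, stood at 502, 687 and 748 CPM in wild type and at 125, 255 and 609 CPM in HIP. HIP30 and HIP2 lay below all wild-type libraries and HIP3 inside their range. The means were 646 ± 128 and 329.7 ± 250.5 CPM (SD, n = 3 each). The log2 difference was -1.24 with a standard error of 0.51 and an interval of -2.41 to -0.07 (limma, adjusted p = 0.691), and it ran from -0.69 without HIP30 to -1.84 without HIP3, with an unadjusted p under 0.05 in 10 of 14 alternatives. Col1a1, the main chain of type I collagen, stood at 328, 426 and 590.3 CPM in wild type and at 41.0, 133 and 628 CPM in HIP. The lowest and the highest of all 6 values were thus both HIP libraries. Its difference of -1.53 had a standard error of 0.84 and an interval from -3.46 to 0.40, and was -0.59 without HIP30 and -2.57 without HIP3. Col1a2, the other chain of type I collagen, was listed with only 15, 49 and 48 reads in wild type and 3, 12 and 36 in HIP, or 0.894, 3.01 and 2.92 against 0.182, 0.733 and 2.21 CPM. The libraries held 674 to 10249 reads on Col1a1, and whether the annotation used for counting covers Col1a2 was not tested, so its level is uncertain. The order of the HIP libraries was that of Col1a1, and the difference was -1.33 with a standard error of 0.89. Itgbl1, the integrin-like secreted protein, shared the order too, at 5.19, 15.05 and 15.4 CPM in wild type and 3.53, 4.52 and 7.78 CPM in HIP, a difference of -1.07 with a standard error of 0.54.

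HIP30 was the lowest of the 6 libraries for 5 of 8 fibrillar collagens and for 15 of all 47 genes, against 24.1% of the 12102 genes. The order HIP30 below HIP2 below HIP3 held for the same count of fibrillar collagens, 5 of 8, and for 17 of the 47, against 27.1%. The opposite order held for the other 3 fibrillar members and for 11 of the 47, against 26.1%.

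Promoters of the type V collagen chains are shown because Col5a2 was the one collagen whose groups did not overlap and Col5a1 encodes its partner. RefSeq sequences on GRCr8, the current rat assembly, were at hand for 39 of the 53 genes, and each window holds the 150 bases before the gene's start, 5′ to 3′ on the gene's strand. Col5a1 lies at chr3:31606730-31606879, plus strand, and Col5a2 at chr9:55090152-55090301, minus strand. Capitals mark matches on either strand to 6 short motifs chosen after the sequences were seen, none of which overlapped another in the windows printed. The TATA box core was searched as TATAAA. The box bound by NF-Y was searched as CCAAT. The GC box was searched as GGGCGG. For AP-1 the letters were TGANTCA. The cyclic AMP response element was searched as TGACGTCA. The core bound by ETS factors was searched as GAGGAA.
Col5a1: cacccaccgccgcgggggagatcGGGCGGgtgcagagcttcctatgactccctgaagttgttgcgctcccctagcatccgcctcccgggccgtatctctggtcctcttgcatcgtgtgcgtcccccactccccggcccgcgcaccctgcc
Col5a2: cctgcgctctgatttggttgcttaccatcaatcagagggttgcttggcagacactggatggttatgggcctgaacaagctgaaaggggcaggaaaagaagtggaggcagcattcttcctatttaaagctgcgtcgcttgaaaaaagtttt

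The Col5a1 window held 1 GC box, and the Col5a2 window held none of these letters. A GC box stood in 53.8% of the 39 windows and in 26.02% of all 33469 such windows before RefSeq gene starts. The NF-Y box stood in 7.69% against 23.5%, the TATA core in 5.13% against 8.0014%, and the ETS core in 20.5% against 14.5%. The cyclic AMP element stood in 2.56% against 1.36%, and the AP-1 letters in 0 of 39 against 3.69%. These are letter matches only, and the 33469 windows were not filtered by gene type or by expression here. Col3a1 and Col5a2 are neighbouring genes on that assembly, as are Col4a3 and Col4a4.

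Other fibrillar chains did not share that order. Col27a1, a long chain of cartilage and other tissues, had no read in WT26, which allows up to 0.179 CPM for counting error alone, and stood at 14.2 and 49.6 CPM in WT1 and WT4. HIP30, HIP2 and HIP3 had 105, 80.3 and 37.8 CPM, and HIP3 lay below WT4. The log2 difference of 3.95 rested on the library without a read: its standard error was 1.91, its interval ran from -0.46 to 8.36, and it was 1.36 without WT26. Col11a2 stood at 2.33, 1.84 and 4.38 CPM against 8.09, 4.52 and 3.49 CPM, a difference of 0.89 with a standard error of 0.53. Col5a3, another chain of type V, stood at 9.003, 4.24 and 6.32 CPM against 5.35, 2.87 and 2.45 CPM, with a difference of -0.87 and a standard error of 0.49. The 3 genes ran highest in HIP30 and lowest in HIP3 among HIP libraries, and none separated the groups.

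**Figure D2:**
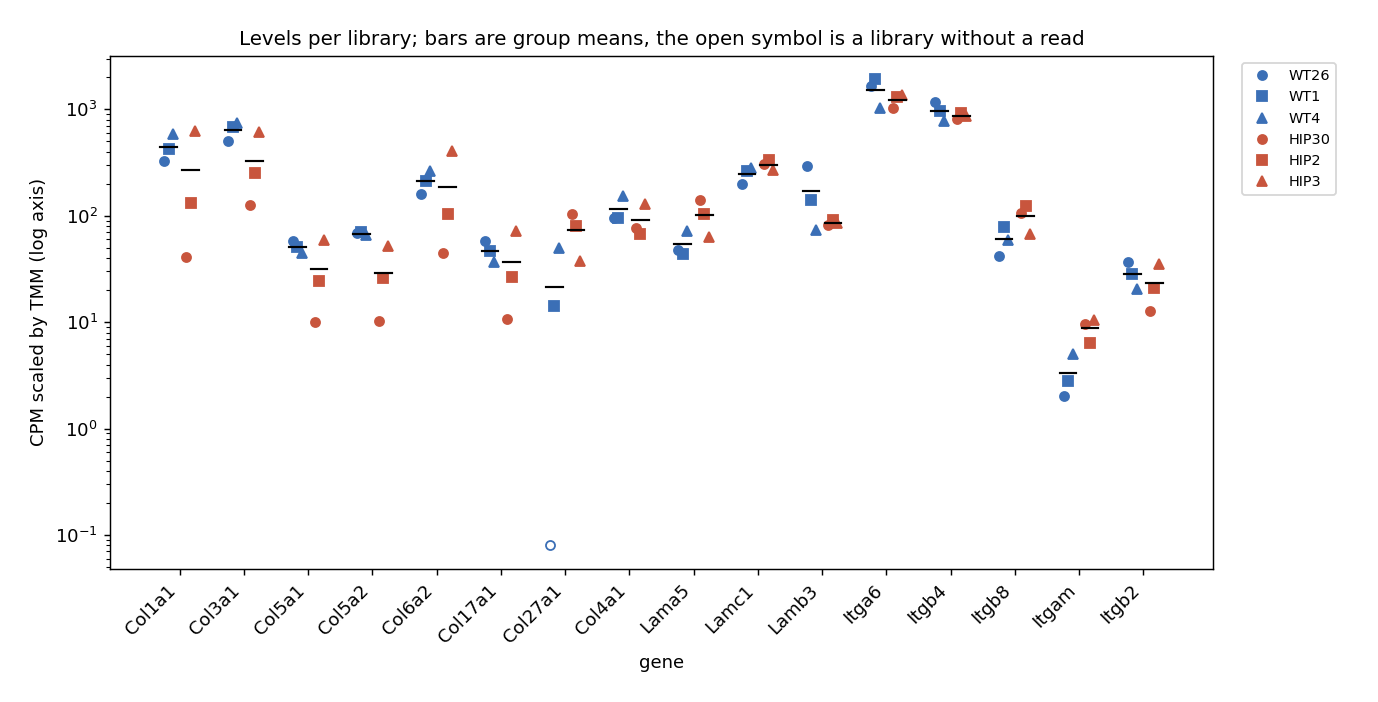
Points give the level of 16 genes in each library in TMM-scaled CPM on a log axis, blue for wild type and red for HIP, with a bar at each group mean; the open circle for Col27a1 in WT26 is a library without a read, drawn near the bottom of the axis. The 3 wild-type values of Col5a2 lie together between 65.8 and 69.8 CPM, while HIP values of the stromal collagens spread from HIP30 at the bottom to HIP3 at the top.

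Among collagens that sit on or beside fibrils, Col6a2 and Col14a1 had HIP30 as the lowest library and Col16a1 did not. Col6a2, a chain of the beaded filaments of type VI collagen, stood at 161, 211 and 267 CPM in wild type and at 44.9, 105 and 411 CPM in HIP. HIP3 was the highest library of the 6 and HIP30 the lowest, and the difference of -0.74 with a standard error of 0.69 was -0.0031 without HIP30 and -1.61 without HIP3. Col14a1, a fibril-associated chain, stood at 4.47, 5.71 and 8.63 CPM against 0.243, 2.69 and 5.21 CPM, with a difference of -1.81 and a standard error of 0.95. Col16a1, another fibril-associated chain, stood at 34.7, 18.8 and 29.9 CPM against 29.7, 15.8 and 15.01 CPM, so that HIP30 sat among wild type and HIP2 and HIP3 below. The low chain Col9a2 ran from 0.298 to 2.49 CPM in wild type and from 1.53 to 4.68 CPM in HIP.

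Col17a1 is a transmembrane collagen of hemidesmosomes and thus an epithelial and not a stromal gene. It stood at 57.7, 46.7 and 36.9 CPM in wild type and at 10.8, 26.5 and 72.4 CPM in HIP. Its HIP libraries stood in the order of Col1a1, with HIP30 lowest and HIP3 highest of all, and the difference was -0.75 (standard error 0.60; limma, adjusted p = 0.796). Without HIP30 it was -0.07 and without HIP3 -1.45. Itga6 and Itgb4, receptor chains of the same structure, stayed within the wild-type range in every HIP library, as given below. Itga6 still had the order HIP30 below HIP2 below HIP3, over a smaller span, and Itgb4 did not. The other transmembrane chain tested, Col13a1, had 4 to 40 reads per library in both groups.

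List medians of stromal markers had the order of the fibrillar median within HIP. The summed level of the fibroblast list did not follow the fibrillar sum in wild type. Of 12 fibroblast and stellate markers that are no member, 11 were tested and 11 of 11 were lower in HIP, with a median of -1.07. Relative to wild type their median stood at -2.10 (HIP30), -0.92 (HIP2) and -0.40 (HIP3), beside -2.34, -1.20 and 0.17 for the fibrillar collagens and -1.36, -0.58 and -0.19 for 7 smooth muscle and pericyte markers. The summed level of the fibroblast list was 4663, 3980 and 1908 CPM in wild type and 341, 823 and 2279 CPM in HIP. Fibrillar collagens summed to 970, 1257 and 1517 CPM in wild type, the opposite order, and to 305, 527 and 1395 CPM in HIP. Fibronectin, Fn1, was a large part of it at 3925, 2899 and 783 CPM against 0, 323 and 1570.1 CPM, with no read in HIP30. Without Fn1, a split made after its values were seen, the sums were 738 to 1124 against 341 to 709 CPM, without overlap. Mfap5 was at 0 in WT26 and WT1. Dcn, the proteoglycan decorin, stood at 162, 300.4 and 201 CPM in wild type and 47.1, 108 and 123 CPM in HIP. The order HIP30 below HIP2 below HIP3 held for 10 of the 11 markers, Dcn among them, against 27.1% of all genes. Dpt, the marker of lowest unadjusted p, did not share it, at 247, 186 and 215 CPM against 115, 83.7 and 111 CPM. Smooth muscle sums were 163 to 248 CPM against 72.5 to 185 CPM, with Cnn1 at 0 in WT4, HIP30 and HIP2. The part of these cells in the collagen differences was not tested.

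**Figure D3:**
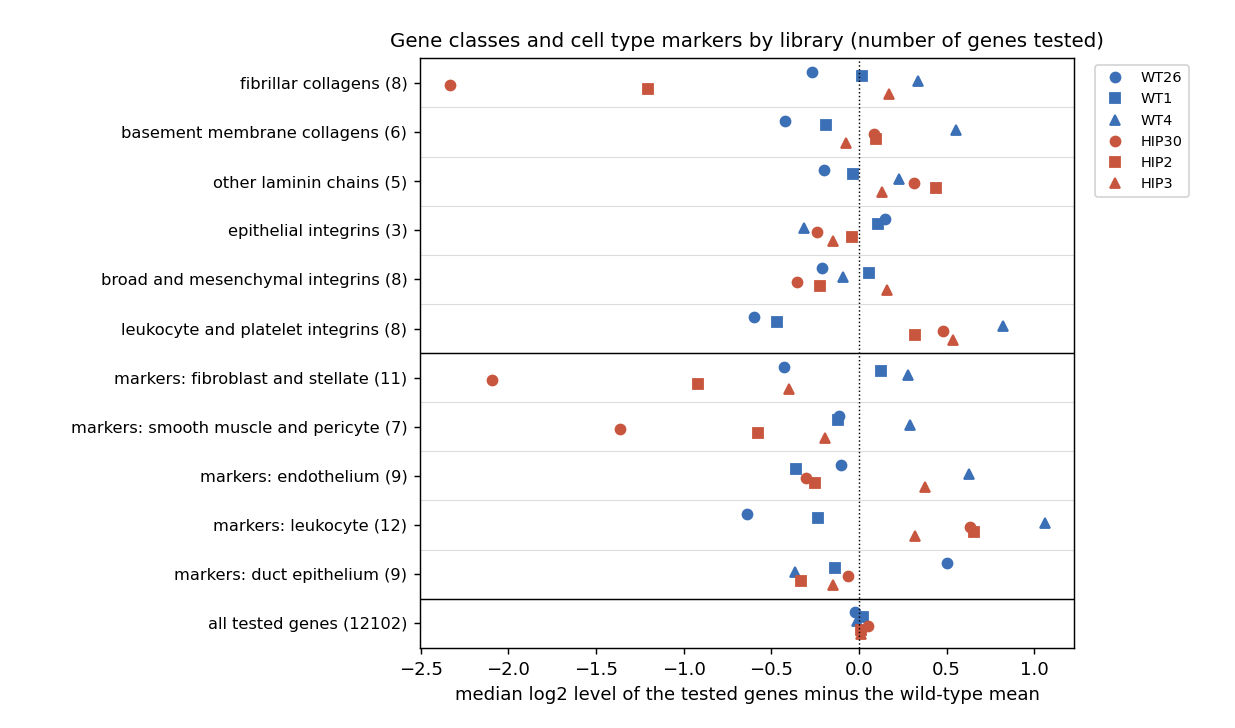
Each point is the median, over the tested genes of a class or marker list, of the log2 level in one library minus the wild-type mean; blue points are wild type, red points HIP. Within HIP, fibrillar collagens and fibroblast markers fall in the same order, at -2.34 and -2.10 in HIP30 and at 0.17 and -0.40 in HIP3. Against wild type they differ: HIP3 lies above WT1 for the collagens (0.02) and below WT1 for the markers (0.13). The medians of all tested genes stay between -0.02 and 0.05.

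Basement membrane collagens showed no common direction, with 3 of 6 higher and 3 of 6 lower. Col4a1, the ubiquitous chain of type IV collagen, stood at 96.3, 94.5 and 155 CPM in wild type and at 76.4, 67.3 and 129 CPM in HIP. WT4 and HIP3 were the 2 highest libraries, and HIP3 lay between the wild-type values. The difference was -0.36 with an interval of -1.06 to 0.33 (limma, adjusted p = 0.805). Vessels also make type IV collagen, and the sum of the endothelial markers was likewise highest in WT4 and HIP3. It was 161, 144 and 249.6 CPM in wild type and 171, 154 and 218 CPM in HIP, with all 9 genes present in each library. Of these genes Cdh5, Tek and Tie1 had WT4 and HIP3 as their 2 highest libraries. Pecam1, Kdr, Emcn, Erg, Cldn5 and Egfl7 did not, and Pecam1 was highest in HIP30 (43.1 CPM) and WT26 (41.1 CPM). The part of vessels in the level of Col4a1 was not tested. Col18a1, the parent of endostatin in basement membranes, stood at 87.4, 63.8 and 78.6 CPM against 80.4, 62.5 and 73.2 CPM. Its difference of -0.08 had an interval of -0.54 to 0.37, which leaves room for about that much change either way. Col7a1, the chain of anchoring fibrils, stood at 10.8, 12.8 and 19.5 CPM against 9.91, 11.6 and 12.0 CPM. Col15a1, a relative of Col18a1, ran from 0.715 to 1.76 CPM in wild type and from 1.16 to 2.08 CPM in HIP.

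Col4a3 and Col4a4 encode chains of the specialised type IV network known from the kidney filter. Col4a3 stood at 3.10, 5.34 and 7.90 CPM in wild type and at 13.1, 10.3 and 4.78 CPM in HIP, and Col4a4 at 0.775, 0.860 and 2.07 against 2.19, 1.59 and 0.797 CPM. Both were lowest in WT26 and highest in HIP30, with HIP3 inside the wild-type range, and the reads on Col4a3 per read on Col4a4 stayed between 3.82 and 6.5 in the 6 libraries. The differences were 0.75 and 0.30 with standard errors of 0.53 and 0.67 (limma, adjusted p = 0.753 and 0.947). The 2 genes lie head to head, with 412 bases between their RefSeq starts on GRCr8, and their windows, printed because the levels ran together, face away from each other at chr9:91323840-91323989, plus strand and chr9:91323578-91323727, minus strand; the capitals mark a GC box.
Col4a3: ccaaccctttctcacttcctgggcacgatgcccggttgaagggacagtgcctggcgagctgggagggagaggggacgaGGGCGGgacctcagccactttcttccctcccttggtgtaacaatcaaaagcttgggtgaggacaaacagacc
Col4a4: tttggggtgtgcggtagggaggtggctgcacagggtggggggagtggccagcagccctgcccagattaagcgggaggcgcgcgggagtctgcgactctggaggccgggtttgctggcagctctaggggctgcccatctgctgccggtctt

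Laminins other than laminin-332 were higher in HIP for 4 of 5 chains. Lama5, the alpha chain of the main laminin of mature epithelium and vessels, stood at 47.5, 44.0 and 72.2 CPM in wild type and at 139.8, 105 and 63.0 CPM in HIP. HIP30 and HIP2 lay above every wild-type library, and HIP3 lay below WT4. The means were 54.6 ± 15.3 and 102 ± 38.4 CPM (SD, n = 3 each). The log2 difference was 0.87 with a standard error of 0.33 and an interval of 0.12 to 1.62 (limma, adjusted p = 0.691), and it ran from 0.61 without HIP30 to 1.17 without HIP3. Its unadjusted p was under 0.05 in 10 of 14 alternatives. Its partner chains varied less. Lamc1, the common gamma chain, stood at 199, 266 and 282 CPM against 307, 334 and 269 CPM, a difference of 0.30 with an interval of -0.16 to 0.75. Lamb2, a beta chain of vessels, muscle and nerve, stood at 172, 166 and 176 CPM against 209, 225 and 163 CPM, with a difference of 0.21. Lama1, an alpha chain best known from embryonic membranes, was low but without overlap, at 2.27, 3.19 and 4.07 CPM in wild type and 6.08, 5.68 and 4.66 CPM in HIP. That difference was 0.79 (standard error 0.43; adjusted p = 0.691). Lamc3 stood at 27.1, 30.5 and 36.5 CPM against 22.8, 23.5 and 31.8 CPM, the one chain of the 5 with a negative difference, -0.27.

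Laminin-332 is the laminin of epithelial hemidesmosomes, and Lamb3 is its beta chain. Lamb3 stood at 294, 140.0 and 73.9 CPM in wild type and at 81.2, 91.0 and 86.1 CPM in HIP. The wild-type libraries spread from 73.9 CPM (WT4) to 294 CPM (WT26), and the HIP libraries lay close together inside that range. The difference of -0.75 (standard error 0.44; limma, adjusted p = 0.695) was -0.24 without WT26 and -1.24 without WT4. The duct keratin Krt19 had the same wild-type order, 7326, 3072 and 1815 CPM, and stood at 1619, 1514 and 2307 CPM in HIP; the part of the epithelium in the level of Lamb3 was not tested.

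Epithelial integrins were lower in HIP for 3 of 3 chains by small amounts, all with intervals that cross 0. Itga6, the alpha chain of the hemidesmosome receptor, stood at 1644, 1913 and 1039.8 CPM in wild type and at 1041, 1303 and 1373 CPM in HIP. Itgb4, its beta chain, stood at 1164, 976 and 771 CPM against 817, 932 and 863 CPM. For both genes WT4 was the lowest library and all HIP values lay within the wild-type range. The differences were -0.27 with an interval of -0.95 to 0.41 and -0.14 with an interval of -0.66 to 0.38 (limma, adjusted p = 0.854 and 0.918). Itgb6, an epithelial chain that activates latent TGF-beta with Itgav, stood at 79.5, 90.2 and 81.9 CPM against 70.9, 83.5 and 73.8 CPM. Its interval, -0.53 to 0.25, was the narrowest of the 3.

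Of the 8 tested integrins found in many or in mesenchymal cells 3 were higher and 5 lower. Itgb8, the other chain that with Itgav releases active TGF-beta, stood at 42.3, 79.1 and 58.7 CPM in wild type and at 107, 125 and 67.1 CPM in HIP. HIP30 and HIP2 were the 2 highest libraries, and HIP3 lay below WT1. The means were 60.0 ± 18.5 and 99.5 ± 29.6 CPM (SD, n = 3 each). The difference was 0.73 with a standard error of 0.31 and an interval of 0.02 to 1.44 (limma, adjusted p = 0.691), and 0.50 without WT26. Its unadjusted p was under 0.05 in 9 of 14 alternatives. It was 0.0559 in limma's fit with a term for the numbers in the titles, which set 26 and 30 apart from 1 to 4 and whose meaning the labels do not give. Itgb1, the shared beta chain of collagen and laminin receptors, stood at 826, 905 and 557 CPM against 580.3, 600.4 and 632 CPM, a difference of -0.31 with an interval of -0.84 to 0.23. Itgb5, a vitronectin receptor chain, stood at 140.3, 105 and 85.2 CPM against 103, 95.3 and 101 CPM. In both, HIP libraries lay close together inside the wild-type range.

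The 5 alpha chains of this group had no common direction. Itga8, a chain of mesenchymal and smooth muscle cells, stood at 31.1, 67.8 and 72.7 CPM against 20.6, 38.3 and 58.1 CPM. Its difference was -0.58 with a standard error of 0.45. Within HIP it had the order of Col1a1, as did Itgb1 and Itga11. Itga5, the fibronectin receptor chain, stood at 15.02, 20.0 and 33.6 CPM against 31.6, 25.3 and 35.7 CPM, a difference of 0.50 with a standard error of 0.33. Itga7, a laminin receptor chain of muscle, stood at 40.1, 26.8 and 25.2 CPM against 22.5, 18.6 and 37.4 CPM. Groups overlapped for each of these chains. Itga1, a collagen receptor chain, stood at 4.83, 7.49 and 21.5 CPM in wild type and 6.57, 11.6 and 8.88 CPM in HIP, and the sign of its small difference, -0.07, turned to 0.0039 with library totals in place of TMM. Itga11, the collagen receptor of fibroblasts, stayed between 3.04 and 6.25 CPM in all libraries.

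Leukocyte integrins split by chain. Itgam, the alpha chain of the complement receptor of myeloid cells, stood at 2.03, 2.83 and 5.05 CPM in wild type and at 9.67, 6.35 and 10.48 CPM in HIP. Every HIP library lay above every wild-type library. The means were 3.30 ± 1.56 and 8.83 ± 2.19 CPM (SD, n = 3 each). The log2 difference was 1.45 with a standard error of 0.47 and an interval of 0.36 to 2.54 (limma, adjusted p = 0.691), and the unadjusted p was under 0.05 in 14 of 14 alternative settings. Itgb2, the beta chain with which Itgam pairs, stood at 37.1, 28.4 and 20.6 CPM in wild type and at 12.9, 21.2 and 35.5 CPM in HIP. There HIP30 was lowest and HIP3 near the top, and the difference was -0.38 with an interval of -1.32 to 0.55 (adjusted p = 0.851). It was -0.017 without HIP30 and -0.76 without HIP3. Of the other partners of Itgb2, Itgal, of lymphocytes, stood at 2.38, 3.56 and 12.0 CPM against 17.3, 11.6 and 4.11 CPM. Itgad, a macrophage chain, had 4, 2 and 36 reads in wild type and 92, 32 and 13 reads in HIP. In both of them HIP30 was highest and HIP3 lay below WT4.

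Itgae, the mucosal T cell chain that binds E-cadherin, stood at 13.9, 8.60 and 20.0 CPM against 16.6, 7.88 and 10.8 CPM. Itgb7, its partner, stayed between 2.21 and 5.23 CPM, Itga4, a chain of lymphocytes and monocytes, between 3.04 and 12.6 CPM, and Itgb3, of platelets and endothelium, between 0.246 and 2.74 CPM. None of these 4 separated the groups. The summed level of 12 leukocyte markers was 589.8, 683 and 1239.9 CPM in wild type and 1008, 971 and 773 CPM in HIP, with Cd3e at 0 in WT26 and Cd79b at 0 in HIP30. Ptprc, the common leukocyte antigen, stood at 54.4, 67.3 and 90.7 CPM against 67.9, 74.4 and 73.2 CPM. Neither the sum nor Ptprc put all HIP libraries above wild type as Itgam did. Of the 12 markers 9 were higher in HIP and 3 lower, with a median of 0.59, where 51.1% of all genes were higher. Relative to the wild-type mean their median stood at 0.63 (HIP30), 0.66 (HIP2) and 0.32 (HIP3), and at 1.06 in WT4. Groups overlapped for each of the 12. The part of leukocyte number in these levels was not tested. Reads on Itgb2 per read on the leukocyte markers ran from 0.0166 in WT4 to 0.0629 in WT26 and from 0.0128 in HIP30 to 0.046 in HIP3.

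Windows before the starts of Lama5, Itgb8 and Itgam are printed because these were the 3 members on the higher side at an unadjusted p under 0.05. They lie at chr3:187695975-187696124, minus strand, at chr6:146351246-146351395, minus strand, and at chr1:192089442-192089591, plus strand, on GRCr8, with the same 6 motifs in capitals.
Lama5: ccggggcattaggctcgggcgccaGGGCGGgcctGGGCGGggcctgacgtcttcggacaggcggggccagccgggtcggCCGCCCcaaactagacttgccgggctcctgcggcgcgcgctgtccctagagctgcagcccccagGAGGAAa
Itgb8: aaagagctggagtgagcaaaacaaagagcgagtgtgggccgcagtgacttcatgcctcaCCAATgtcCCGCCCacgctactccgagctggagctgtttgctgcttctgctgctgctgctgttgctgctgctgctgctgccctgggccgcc
Itgam: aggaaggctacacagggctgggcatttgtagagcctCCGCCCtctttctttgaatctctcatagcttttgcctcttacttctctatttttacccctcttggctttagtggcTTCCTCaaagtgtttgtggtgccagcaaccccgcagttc

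The Lama5 window held 3 GC boxes and 1 ETS core, that of Itgb8 held 1 GC box and 1 NF-Y box, and that of Itgam 1 GC box and 1 ETS core, some of them on the reverse strand.

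**Figure D4:**
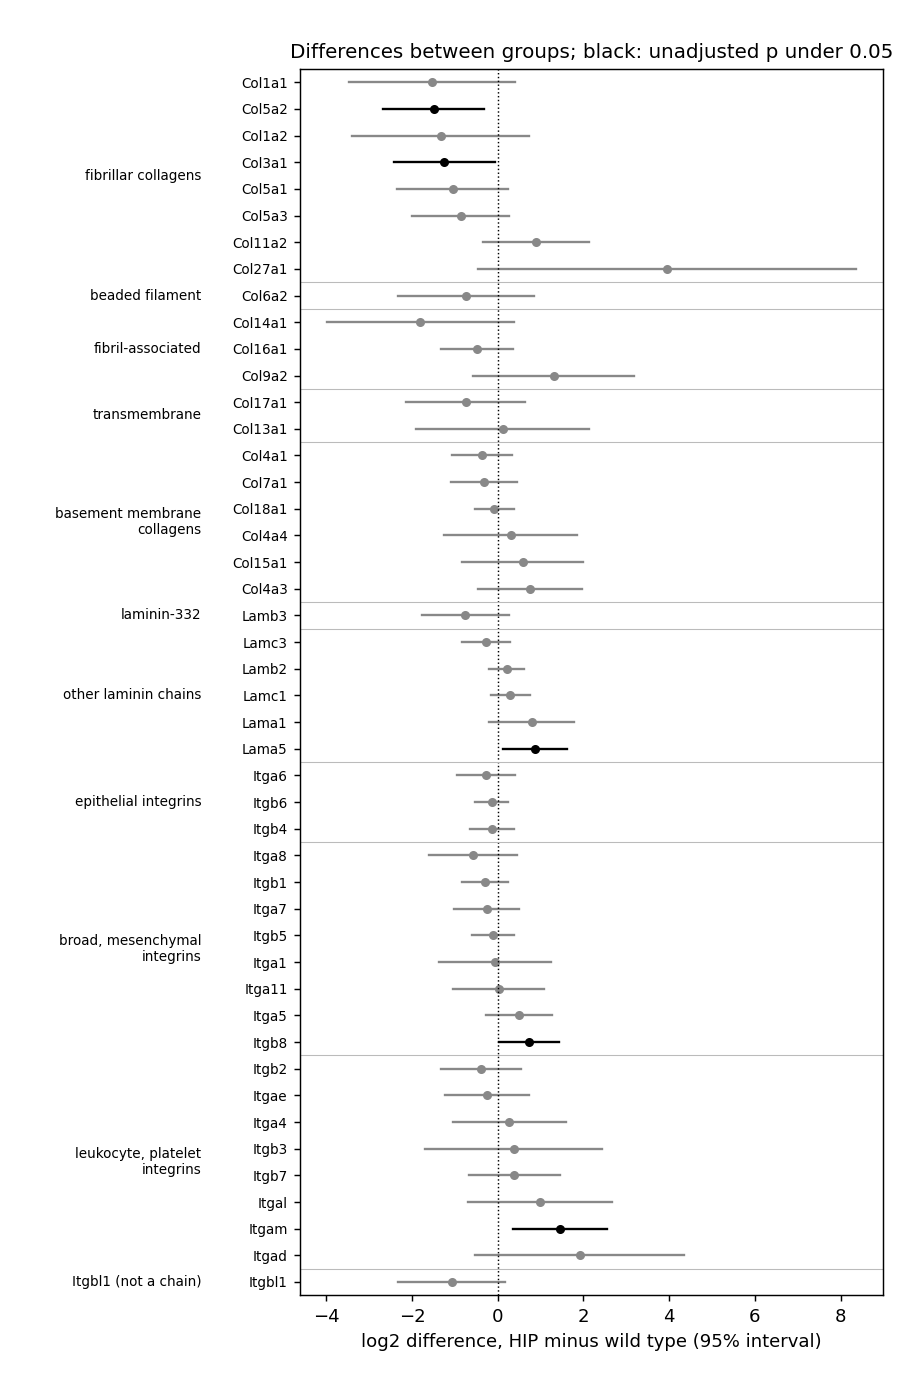
Points are log2 differences of HIP minus wild type for 46 tested genes by class, with 95% intervals from limma, and black marks an unadjusted p under 0.05. Col27a1 has the widest interval, -0.46 to 8.36, and the intervals of Itga6, Itgb4 and Itgb6 lie between -0.95 and 0.41.

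Genes that make, modify or read the matrix were described from 4 lists. In the list of collagen folding, processing and crosslinking 25 genes were tested, 13 higher and 12 lower with a median of 0.0048, and 3 stood below 0.05 unadjusted, all lower, where 3.26% of all genes did so on the lower side. Of the 25 genes 1, Pcolce, lay below wild type without overlap and 1 above it, against 4.27% and 5.27% of all genes. Pcolce, which enhances procollagen cleavage, stood at 54.7, 57.5 and 59.3 CPM in wild type and 31.0, 34.1 and 46.9 CPM in HIP. Its difference was -0.63 (standard error 0.22, limma, adjusted p = 0.691). Sparc, a collagen chaperone of the matrix, stood at 241, 308 and 408 CPM against 97.5, 143 and 293 CPM, and Loxl4, a crosslinking enzyme, at 118, 88.5 and 45.4 CPM against 11.3, 28.8 and 53.9 CPM. In all 3 genes HIP30 was lowest and HIP3 the highest of the HIP libraries, as for Col1a1.

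Among 12 basement membrane partners 8 were higher and 4 lower, with a median of 0.14, and at an unadjusted p under 0.05 stood 3 on the higher side and 1 on the lower, against 3.29% and 3.26% of all genes. Fras1, a protein of epithelial basement membranes, stood at 16.6, 38.0 and 78.4 CPM against 201, 158 and 48.1 CPM, a difference of 1.65 (standard error 0.66; limma, adjusted p = 0.691). Ntn4, a netrin that binds laminin, differed by 1.47 and Smoc2, a Sparc relative, by 1.61. HIP30 and HIP2 were the 2 highest libraries in each of the 3 and HIP3 lay below WT4, the pattern seen for Lama5. On the lower side 2 genes were added after their values were seen. Fbln1, a fibulin of basement membranes, stood at 43.7, 80.4 and 76.7 CPM against 25.2, 40.8 and 51.3 CPM, a difference of -0.78. Nid2, a nidogen that links laminin to type IV collagen, was the 1 gene of the 12 without overlap, against 9.54% of all genes. It stood at 21.2, 29.3 and 21.5 CPM against 15.02, 18.3 and 18.8 CPM, a difference of -0.45. Of 11 hemidesmosome components and matrix receptors outside the integrins 3 were higher and 8 lower, with a median of -0.32. Ddr2, a collagen receptor of fibroblasts, differed by -1.53, with 11.3, 20.7 and 26.8 CPM in wild type and 3.34, 11.7 and 6.37 CPM in HIP. Plec, the plectin that ties Itgb4 to keratin, differed by -0.51, and Lair1, a collagen receptor of leukocytes, by 2.16 with a standard error of 1.33. In the adhesion complex inside the cell 21 genes were tested, 8 higher and 13 lower, with a median of -0.06. Lims2, an adaptor of this complex, was the 1 gene of the 21 without overlap, against 9.54% of all genes. It stood at 10.8, 13.02 and 24.3 CPM against 45.9, 34.1 and 25.1 CPM. Vcl and Fermt1, which link or activate integrins, differed by -0.72 and -0.60. None of these genes passed limma's test over all genes, where the lowest adjusted p was 0.691.

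Finally, 6 members had too few reads to be tested. Col11a1 had 2, 3 and 63 reads in WT26, WT1 and WT4 and 0, 8 and 6 in HIP30, HIP2 and HIP3, Col9a1 2, 0 and 21 against 6, 12 and 7, and Itga10 0, 0 and 14 against 4, 3 and 3. WT4 held the most reads of each and was also the library with the fewest genes without a read. Col8a1 had at most 12 reads in a library, Col2a1 at most 14, and Col23a1 3 reads in WT4 and none elsewhere. A count of 0 allows up to 0.179 to 0.184 CPM, from 3 reads and for counting error only.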

How the data were processed

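RNA from 6 captured gland samples was sequenced by the submitters, whose processing notes name STAR, HTSeq, edgeR, limma and the rn5 build, without versions or roles. The authors deposited 1 table per library of log2 values, which the values show to be log2 CPM with a small prior: a gene without reads stands at -6.04, and whole reads were recovered for 100% of entries within 0.1 reads. No source used here says whether counting used strand, so overlapping genes and near-identical copies cannot be separated.

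Groups follow the titles. TMM factors (trims of 30% and 5%) lay between 0.933 and 1.09. Tested were genes that reached 0.61 CPM, which is 10 reads in a library of median size, in 3 or more libraries and had 15 reads in total, 12102 in all, after 4 rows of repeated symbols were left out. The values log2(CPM + 0.121), a pseudocount of 2 reads in an average library, were fitted with limma 3.58.1 (R 4.3.3) and its trend option. The pseudocount understates differences of low genes. P-values were adjusted over all genes by Benjamini-Hochberg, at 0.05. Standard errors and 95% intervals come from this fit, and the steps were tested on simulated data.

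Members, classes and lists were chosen with earlier results of these data known. Named with all values are members with a mean of at least 10 CPM, with an unadjusted p under 0.05 or without overlap, others by range or in part, and the 3 genes of lowest p in each pathway list. Several other members are given in full, chosen after their values were seen. Symbols of 53 of 53 members match RefSeq on GRCr8. A planned description of protein sequences and the values of 1 tested member are not reported here. Alternatives covered scaling, filter, pseudocount, limma-voom, the number series of the titles and leaving out each library.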

Additional observations from a re-analysis of the deposited data

How the results depend on the processing

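In each of 14 alternatives 0 genes and 0 members passed at an adjusted p of 0.05. The count of members at an unadjusted p under 0.05, 5 of 47, ran from 2 (without WT1, HIP30 or HIP2) to 9 without WT4 and 12 without HIP3, while the share of all genes ran from 1.91% without HIP2 to 14.9% without HIP3 and was 13.1% without WT4. In other settings the count was 5 to 7, the 7 with a term for the number series, where Itgb8 left and Col14a1, Itga8 and Itgbl1 entered. The fibrillar median of -1.15 ran from -1.77 without HIP3 to -0.59 without HIP30, and was -1.87 between HIP30 and WT26 and -0.83 among libraries numbered 1 to 4, a comparison added after the data were seen. Of 30 named members 25 kept their direction in all settings run, but leaving out 1 library moved the difference by over 1.5 times, or turned it, in 26 of the 30. With libraries left out, Col18a1 ran from -0.22 to 0.017, Itgb5 from -0.28 to 0.076, Itga1 from -0.53 to 0.54, Itgb4 from -0.29 to 0.0040 and Itgae from -0.57 to 0.037. Itga1 was 0.0039 with library totals and 0.0071 with log2 values as deposited, which also carry no TMM factors. The cause of these changes was not tested. A quasi-likelihood test from edgeR was listed as an alternative and not run; limma-voom on the recovered reads was the count-based alternative. No paired analysis was possible because the title numbers of the 2 groups are not shared. Fits without a library left 2 in its group. Low read numbers limit the 6 members under the filter, and the number of genes without a read differed between libraries.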
